A study of Homo sapiens with 8 samples.

Results

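The replication-dependent histone genes were described here by class (H1, H2A, H2B, H3 and H4) and by gene cluster (HIST1, HIST2, HIST3 and HIST4), both read from the gene symbol. Of 20531 genes in each deposited table, 67 had a symbol of the form HIST1 to HIST4 followed by a histone class, and the 45 of them that reached a value of 10 in at least 1 library were taken as members. They comprised 4 H1, 11 H2A, 13 H2B, 9 H3 and 8 H4 genes, of which 36 lay in HIST1, 6 in HIST2, 2 in HIST3 and 1 in HIST4. The study sequenced poly(A) RNA from 2 HER2-positive breast carcinoma cell lines, SKBR-3 and BT474m1, to follow how they respond to lapatinib and JQ1. Lapatinib is a kinase inhibitor of HER2 and the EGF receptor, and JQ1 blocks the bromodomains with which BET proteins bind acetylated histones. Each line was cultured for 48 h per the labels with DMSO (the solvent control), with 300 nM lapatinib, with 300 nM JQ1 or with both drugs at these doses, in RPMI medium with fetal bovine serum. Each of the 8 groups was a single library, so differences within a line were measured between 2 libraries with no replicate cultures. The only test was a fit over both lines with the line as a block.

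Replication-dependent histone genes supply the bulk of histone protein during S phase, when new DNA has to be packaged. H2A, H2B, H3 and H4 form the core of the nucleosome, and H1 binds the linker DNA between nucleosomes. Their mature mRNAs normally carry no poly(A) tail and end a few bases after a conserved stem-loop that is bound by the stem-loop binding protein SLBP. A fraction of transcripts is instead cleaved further downstream and polyadenylated, more often in cells that have left the cycle. A poly(A) library therefore sees tailed histone transcripts, together with any untailed RNA that carries over, and the values below cannot be read as total histone mRNA.

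The stem-loop is shown first because it decides how these transcripts end. A stem-loop of 16 bases was found in an annotated transcript (GENCODE release 44) of each of the 45 members, with 8 distinct sequences among them. In the sites below, read 5′ to 3′ as DNA letters, capitals mark the stem-loop and lower case the bases on either side.
HIST1H1C: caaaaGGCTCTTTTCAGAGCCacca
HIST2H2BE: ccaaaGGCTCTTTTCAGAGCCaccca
HIST1H2BK: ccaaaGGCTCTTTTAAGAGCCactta
HIST1H3E: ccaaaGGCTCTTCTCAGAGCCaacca
HIST1H4J: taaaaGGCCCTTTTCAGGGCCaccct
HIST1H4K: caaaaGGCCCTTTTTAGGGCCccca
HIST2H4A: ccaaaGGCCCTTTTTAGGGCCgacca
The form of HIST1H1C was held by all 4 H1 members, by 8 of 11 H2A, 8 of 13 H2B and 7 of 9 H3 members. The form of HIST1H2BK was held by 5 H2B members and 1 H3 member. The 8 H4 members had stems of their own, 5 like HIST1H4J and 3 like HIST1H4K and HIST2H4A. HIST1H4J and HIST1H4K could be told apart by few bases: their transcripts were identical at 384 of 387 aligned bases.

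The promoters showed where the classes differ upstream. Many H2A and H2B genes stand head to head and share 1 promoter, and the stretch between the starts is printed for a pair from HIST1 and a pair from HIST2, with 150 bases before the start of 2 H4 genes. Sequences are from RefSeq (GRCh38.p14). Capitals mark 4 motifs, each searched on both strands. CCAAT is the CCAAT box. A TATA box was searched as TATAAA. The octamer bound by POU2F1 was searched as ATTTGCAT. The core of the H4 element bound by HINFP was searched as GGTCCG.
HIST1H2BC and HIST1H2AC, chr6:26123927-26124171, + strand: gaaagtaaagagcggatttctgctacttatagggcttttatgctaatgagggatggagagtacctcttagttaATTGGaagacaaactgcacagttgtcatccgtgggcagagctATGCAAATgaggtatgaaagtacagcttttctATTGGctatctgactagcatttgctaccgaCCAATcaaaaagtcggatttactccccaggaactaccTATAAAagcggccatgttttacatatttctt
HIST2H2BE and HIST2H2AC, chr1:149886683-149886917, + strand: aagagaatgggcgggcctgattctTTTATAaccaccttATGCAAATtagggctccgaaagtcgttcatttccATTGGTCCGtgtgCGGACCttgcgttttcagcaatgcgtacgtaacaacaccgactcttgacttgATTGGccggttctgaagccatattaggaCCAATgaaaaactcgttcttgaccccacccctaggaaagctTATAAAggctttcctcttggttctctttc
HIST2H4A, chr1:149832507-149832656, + strand: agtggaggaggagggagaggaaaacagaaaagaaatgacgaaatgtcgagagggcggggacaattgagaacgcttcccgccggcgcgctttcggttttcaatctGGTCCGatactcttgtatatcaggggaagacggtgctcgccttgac
HIST1H4K, chr6:27831561-27831710, - strand: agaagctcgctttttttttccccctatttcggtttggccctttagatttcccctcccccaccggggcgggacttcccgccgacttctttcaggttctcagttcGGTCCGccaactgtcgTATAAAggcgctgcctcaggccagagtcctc
In the HIST2 pair a CCAAT box on the reverse strand overlaps a GGTCCG. Promoters of 300 bases were held for 43 of the 45 members. CCAAT was present in each of the 36 with an H1, H2A, H2B or H3 gene and in 1 of 7 with an H4 gene, against 34.6% of all 35116 promoters. ATTTGCAT was present in 8 of 11 H2A and 9 of 13 H2B promoters, in 1 of 8 H3 promoters and in no H1 or H4 promoter (0 of 4 and 0 of 7), against 1.77% of all promoters. GGTCCG was present in 7 of 7 H4 promoters, in 1 H2A and 1 H2B promoter, which are the HIST2 pair printed above, and in no H1 or H3 promoter, against 11.3% overall. TATAAA was present in 25 of 43, against 11.5%. These matches describe the letters in the windows and are not evidence of binding.

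The deposited values are abundance estimates that were scaled to the upper quartile of each library and are not divided by gene length, so levels were compared between libraries and not between genes. The 8 libraries held between 21420113 and 34112379 recovered reads on genes. The luminal and HER2-amplified identity of the lines could be seen in ERBB2, at 94678 to 277872, and in keratin 8, whereas PTPRC, DCN, COL1A2 and PECAM1, which mark leukocytes, fibroblasts and endothelium, were at 3.38 or less in each library. COL1A1, CD68 and VWF, which also mark such cells, were higher, at 24.1 to 1253, 11.8 to 407 and 1.93 to 153, and their part in the results was not tested. ESR1 was at 189.9 to 1827 in BT474m1 and at 16.8 or less in SKBR-3. Fewer cells in S phase and less histone RNA in each cell cannot be told apart in these bulk libraries.

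The values of several members cannot be assigned to 1 locus with certainty. Over the members, 68.7% of values above 0 were whole reads, against 83.8% for all genes kept. The share was 100% for H1, 82.1% for H3, 83.3% for H4, 72.3% for H2A and 39.8% for H2B, and it was 31.2% in HIST2. For 9 members over 50% of the 50-base windows of the transcript recurred in another histone gene. HIST2H4A and HIST2H2AA3 shared 100% of their windows with other histone genes, most often the copies H4C15 and H2AC19. HIST2H3C shared 99.2%, most often with H3C15. HIST1H2BK shared 57.2% of its windows. HIST1H2AM shared 67.8% with other histone genes, most often HIST1H3J (H3C12), whose annotation overlaps it. Windows were matched in the sense direction only, so counting by strand would not separate HIST1H2AM from HIST1H3J. Whether the strand was used in counting is not given in the sources used here.

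Of the 22 rows below the value of 10, 5 were at 0 in each of the 8 libraries, namely HIST1H1A, HIST1H2AA, HIST1H2BA, HIST1H4G and HIST1H4L. The members just inside the limit were HIST1H1E and HIST1H2AL, each with a highest value of 10.95, and HIST1H2BL at 11.9. Just outside it were HIST1H4A at 9.43, HIST1H2BE at 7.66 and HIST2H2AB at 7.09. A total of 32 members reached 10 in a library without JQ1, and 13 did so only in a library with JQ1. Member counts are therefore partly set by the filter, and sums over all 67 rows, to which the filter was not applied, are given first.

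JQ1 was accompanied by more signal in every histone class in both lines. In SKBR-3 the sum over the 67 rows was 3271 for DMSO, 4391 for lapatinib, 27634 for JQ1 and 16585.0 for both drugs. The corresponding sums of BT474m1 were 3689, 5933, 11743 and 8282. The JQ1 library was the highest and the DMSO library the lowest in each line. In SKBR-3 the order of DMSO and lapatinib rested on the 5 rows with the highest means, without which the sums were 1051 and 1022. JQ1 against DMSO gave a log2 ratio of 3.08 (95% counting interval 3.03 to 3.12) in SKBR-3 and 1.67 (1.63 to 1.71) in BT474m1. Such intervals are exact Clopper-Pearson intervals on recovered reads and cover counting error only. The histone rows took 0.0207% of all signal with DMSO and 0.158% with JQ1 in SKBR-3, and 0.0229% and 0.0718% in BT474m1.

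The size of the JQ1 difference depended on class. H4, the most invariant core histone, had the largest ratio in both lines. In SKBR-3 its sum went from 461.0 to 6709, and in BT474m1 from 359 to 2061, log2 ratios of 3.86 (3.75 to 3.98) and 2.52 (2.41 to 2.64). H2A went from 703 to 6091 and from 590.0 to 3140, with ratios of 3.11 and 2.41. H2B went from 1623 to 10751 and from 2388 to 5762, with ratios of 2.73 and 1.27. H1 had ratios of 3.17 (3.03 to 3.30) in SKBR-3 and 1.27 (1.10 to 1.45) in BT474m1, and H3 had 2.84 (2.62 to 3.06) and 0.99 (0.80 to 1.17). By sums, H4 was thus separated from the other classes by more than counting error in SKBR-3, but by members its median was the lowest of the 5 classes, at 2.03 against 2.09 for H1, 2.32 for H3, 2.33 for H2B and 2.58 for H2A. In BT474m1 the intervals of H4 and H2A (2.32 to 2.50) overlapped, and both lay above those of H1, H2B and H3, while the member medians were 1.57 for H4, 1.67 for H2A, 1.22 for H2B, 0.70 for H3 and -0.06 for H1.

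**Figure D1:**
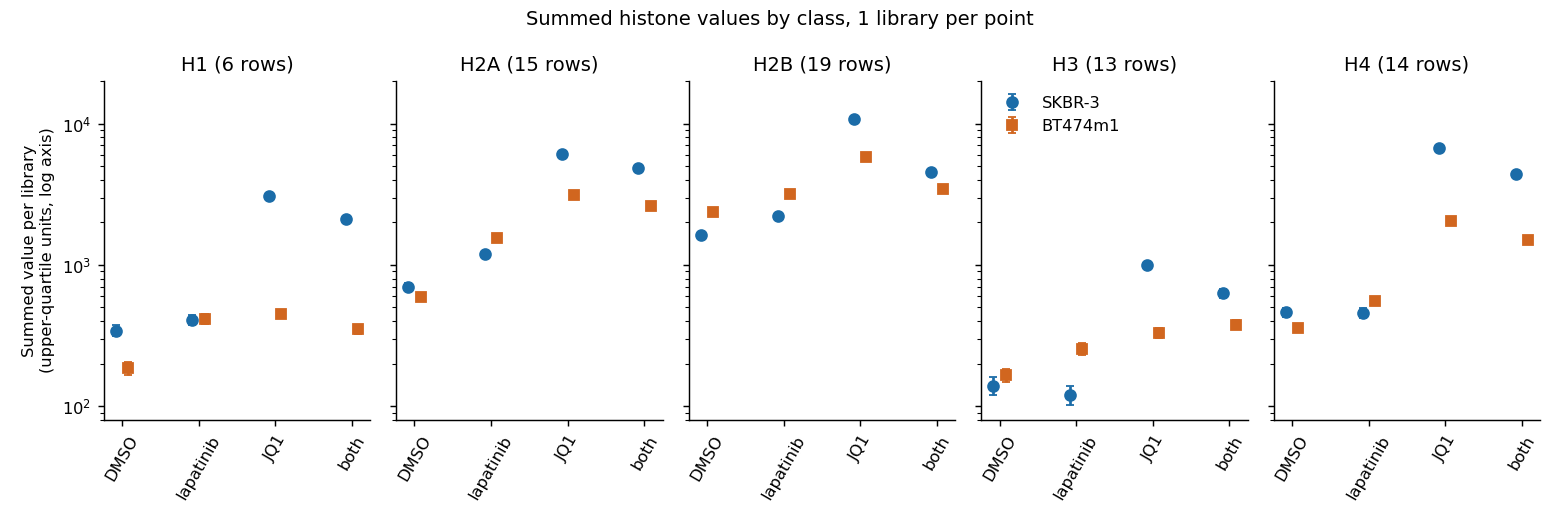
Summed value of each histone class (vertical axis, upper-quartile units, log scale) in the 4 treatments of SKBR-3 (circles) and BT474m1 (squares), over all rows of the class. Bars are 95% counting intervals, mostly smaller than the symbols, and the JQ1 library is the highest of its line in each class except H3 of BT474m1, where the library with both drugs is at 379 and the JQ1 library at 330.2.

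Some class sums were carried by a single gene. HIST2H4A, an H4 gene, made up 68.3% of the H4 sum of SKBR-3 with DMSO and 89.3% with JQ1. Without it the H4 log2 ratio for JQ1 was 2.29 in SKBR-3 and 1.57 in BT474m1, no longer above H2A. HIST1H1C made up 92.6% to 98.7% of the H1 sum, and the other H1 rows together gave 2.24 in SKBR-3 and -0.24 in BT474m1. HIST1H2BK made up 69.1% of H2B with DMSO in SKBR-3 and 63.6% in BT474m1, and without it the H2B ratios were higher, at 3.28 and 2.16. Without HIST2H3C the H3 ratios were 2.44 and 0.58. Without HIST1H2AC the H2A ratios were 3.02 and 2.46.

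Counted gene by gene, and calling a gene raised or lowered at a 2-fold difference or more on the log2(value + 1) scale, 39 of 45 members were raised with JQ1 in SKBR-3 and none was lowered. Over all 14429 genes kept, 3.75% were raised and 11.8% lowered in that comparison. In BT474m1 25 of 45 were raised and none was lowered, against 4.81% and 11.8% of all genes. The 25 were all among the 39, and 1.16% of all genes were raised and 5.31% lowered in both lines. The median member difference was 2.33 in SKBR-3 (2.51 with genes at 0 reads set to a floor of 3 reads) and 1.22 in BT474m1 (1.30). The filter bears on the latter, which was 0.57 over all 67 rows and 2.37 over rows that reached 100. Requiring in addition a counting interval that excludes no change left 37 and 25 raised. The change was larger in SKBR-3 for 36 of the 45. The 6 members not raised in SKBR-3 were HIST1H2AK, HIST1H2BH, HIST1H2BL, HIST1H3E, HIST1H3J and HIST1H4J.

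Across the lines, a fit with the line as a block (limma, Benjamini-Hochberg adjusted p under 0.05 over all genes kept) pooled the unequal differences of the 2 lines and had 3 residual degrees of freedom. For JQ1 against DMSO it called 2 members raised, HIST2H4A (3.80, adjusted p = 0.0481 by limma) and HIST2H2AA3 (3.02, adjusted p = 0.0481 by limma), and these were the only 2 genes of 14429 called raised (0.0139%). Before adjustment, 25 members had a p under 0.05 and a higher level with JQ1, against 5.32% of all genes. No member was called lowered by limma, against 0.0416% of all genes, and none had a p under 0.05 and a lower level before adjustment, against 9.93%.

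Among H1 members, the linker histone gene HIST1H1C carried the class. Its values in SKBR-3 were 321 (DMSO), 399 (lapatinib), 2978 (JQ1) and 2067 (both drugs). In BT474m1 they were 172, 410.2, 438 and 342. The JQ1 difference was thus 3.21 (3.07 to 3.35) in SKBR-3 and 1.34 (1.17 to 1.53) in BT474m1, where lapatinib alone gave 1.25 (1.07 to 1.44). HIST1H1D went from 7.87 to 68.3 with JQ1 in SKBR-3 and was between 1.81 and 3.38 in BT474m1. HIST1H1E stayed between 3.06 and 10.95 in the 8 libraries. HIST1H1B measured 10.02 (DMSO), 0 (lapatinib), 24.5 (JQ1) and 0 (both drugs) in SKBR-3, at least 4.36-fold lower with lapatinib than with DMSO against a floor of 3 reads. In BT474m1 it was at 3.30, 0, 1.93 and 1.17. The floor of the lapatinib library there was 1.81, so a fall of 2-fold is not shown against it.

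Within H2A the 3 genes with the highest means were HIST1H2AC, HIST2H2AA3 and HIST3H2A. HIST1H2AC measured 318, 689, 2976 and 2369.7 in SKBR-3 (DMSO, lapatinib, JQ1 and both drugs, the order used from here on) and 347, 1013, 1796 and 1402 in BT474m1. It was raised by each drug in both lines. HIST2H2AA3 measured 247, 371, 2522 and 2067 in SKBR-3 and 123, 237, 804 and 616 in BT474m1, with JQ1 differences of 3.35 and 2.69. HIST3H2A differed from both. It measured 66.6, 74.3, 147 and 158 in SKBR-3 and 39.6, 179.5, 94.7 and 272 in BT474m1, where the lapatinib difference (2.15, 1.83 to 2.55) was larger than that for JQ1 (1.24, 0.88 to 1.64). HIST1H2AG and HIST1H2AE, of lower level, rose with JQ1 by 3.63 and 3.05 in SKBR-3 and by 3.12 and 2.73 in BT474m1. In all, JQ1 raised 10 of 11 H2A members in SKBR-3 and 8 in BT474m1.

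HIST1H2BK, the H2B gene with the highest mean, responded unequally in the lines. It measured 1121, 1679, 5883 and 1518 in SKBR-3 and 1518, 1701, 1876 and 779 in BT474m1. JQ1 gave 2.39 (2.31 to 2.47) in SKBR-3 and 0.30 (0.24 to 0.37) in BT474m1. HIST1H2BD measured 145, 299, 1173 and 1459 in SKBR-3 and 405, 947, 2004 and 1724 in BT474m1, raised by each treatment in both lines. HIST2H2BE measured 97.2, 116, 1521 and 844 in SKBR-3 and 205, 250.2, 1116 and 551 in BT474m1. HIST1H2BG had the largest JQ1 difference of the class, 4.49 in SKBR-3 (7.87 to 198) and 3.08 in BT474m1 (23.6 to 207). HIST3H2BB went from 2.86 to 17.4 and from 1.89 to 15.0. With JQ1, 11 of 13 H2B members were raised in SKBR-3 and 8 in BT474m1.

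H3 genes differed from one another with JQ1. HIST2H3C measured 25.4, 24.5, 376 and 384 in SKBR-3 and 5.66, 10.1, 89.0 and 131 in BT474m1, with JQ1 differences of 3.84 (3.42 to 4.44) and 3.76 (3.13 to 4.95). Adding lapatinib to JQ1 left it at 0.03 (-0.14 to 0.20) in SKBR-3 and 0.55 (0.27 to 0.85) in BT474m1 relative to JQ1 alone. HIST1H3H rose with JQ1 from 20.04 to 172 and from 9.901 to 55.1. HIST1H3E was not raised by JQ1. It measured 30.1, 54.4, 48.3 and 77.0 in SKBR-3 and 120.2, 197, 101 and 162 in BT474m1, and its JQ1 differences were 0.67 (0.12 to 1.27) and -0.24 (-0.52 to 0.02), below 2-fold in both. Its stem-loop form, printed above, was held by no other member, which was also true of the forms of HIST1H2AG, HIST1H2AK and HIST2H2AC. The part of the stem-loop form in the response was not tested. Of 9 H3 members, JQ1 raised 7 in SKBR-3 and 3 in BT474m1.

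Among H4 members, HIST2H4A measured 315, 302, 5994 and 3720.0 in SKBR-3. Its values in BT474m1 were 136, 239, 1401 and 1149.8, and JQ1 gave differences of 4.25 (4.11 to 4.39) and 3.36 (3.19 to 3.55). HIST1H4H measured 63.0, 98.0, 472 and 491 in SKBR-3 and 154, 223, 528 and 219 in BT474m1. JQ1 thus raised both in each line, whereas with both drugs HIST1H4H was raised in SKBR-3 (2.94) and not in BT474m1 (0.50). HIST4H4, the only HIST4 gene, measured 10.7, 1.53, 29.0 and 12.4 in SKBR-3 and 15.6, 47.0, 41.5 and 55.4 in BT474m1.

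HIST1H4J and HIST1H4K have to be read together. HIST1H4J measured 46.2, 0, 86.4 and 59.4 in SKBR-3 and 23.6, 0, 40.4 and 7.195 in BT474m1, and HIST1H4K measured 12.5, 49.0, 80.5 and 128 in SKBR-3 and 0, 22.9, 6.93 and 43.5 in BT474m1. One was low where the other was high in both lapatinib libraries. Their summed value was 58.7, 49.0, 167 and 187 in SKBR-3 and 23.6, 22.9, 47.3 and 50.7 in BT474m1. For lapatinib against DMSO the sum gave log2 ratios of -0.26 and -0.04, while singly HIST1H4J was counted as lowered and HIST1H4K as raised. For JQ1 the sum gave 1.51 and 1.01.

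HIST2 sums differed more with JQ1 than HIST1 sums of the same class, although in H2A the counting intervals overlapped. Over all rows, JQ1 gave a HIST2 sum 14.1-fold higher in SKBR-3 and 7.19-fold higher in BT474m1, where HIST1 was 6.89-fold and 2.57-fold higher. Without the leading gene of each cluster, HIST2H4A and HIST1H2BK, the log2 ratios were 3.40 and 2.58 for HIST2 and 3.05 and 1.93 for HIST1. Within H2B they were 3.48 (3.28 to 3.68) for HIST2 and 2.62 (2.55 to 2.68) for HIST1 in SKBR-3, and 2.49 (2.34 to 2.63) and 1.06 in BT474m1. Within H3 they were 3.85 (3.37 to 4.37) and 2.46 (2.21 to 2.70) in SKBR-3, and 4.00 (3.16 to 4.98) and 0.57 (0.37 to 0.77) in BT474m1. H4 gave 4.25 (4.11 to 4.39) and 2.34 (2.12 to 2.57), then 3.37 (3.19 to 3.55) and 1.58 (1.42 to 1.74). Counting intervals of the 2 clusters did not overlap in these 3 classes, but did in H2A, with 3.30 and 3.17 in SKBR-3 and 2.63 and 2.41 in BT474m1. The contrast rests on few genes. The HIST2 sum of H4 is the 1 row HIST2H4A, and HIST2H3C held 376 of the 381 units of the HIST2 sum of H3 with JQ1 in SKBR-3. The HIST1 value of H2B was held down by HIST1H2BK, without which it was 3.18 (3.04 to 3.32) in SKBR-3, overlapping that of HIST2, and 2.03 (1.95 to 2.12) in BT474m1. HIST2H2AC differed by 1.47 and 0.07, less than the HIST1 sum of its class. The share of HIST2 in all histone signal went from 23.3% to 38.8% in SKBR-3, and in BT474m1 from 13.2% to 29.9%. HIST2 is also the cluster with 4 of the 9 members that share most of their sequence with other histone genes, and the part of this in the result was not tested. HIST3 had a JQ1 ratio of 1.23 (0.89 to 1.58) in SKBR-3, below HIST1, and of 1.40 (1.04 to 1.77) in BT474m1, where its interval held the value of HIST1.

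**Figure D2:**
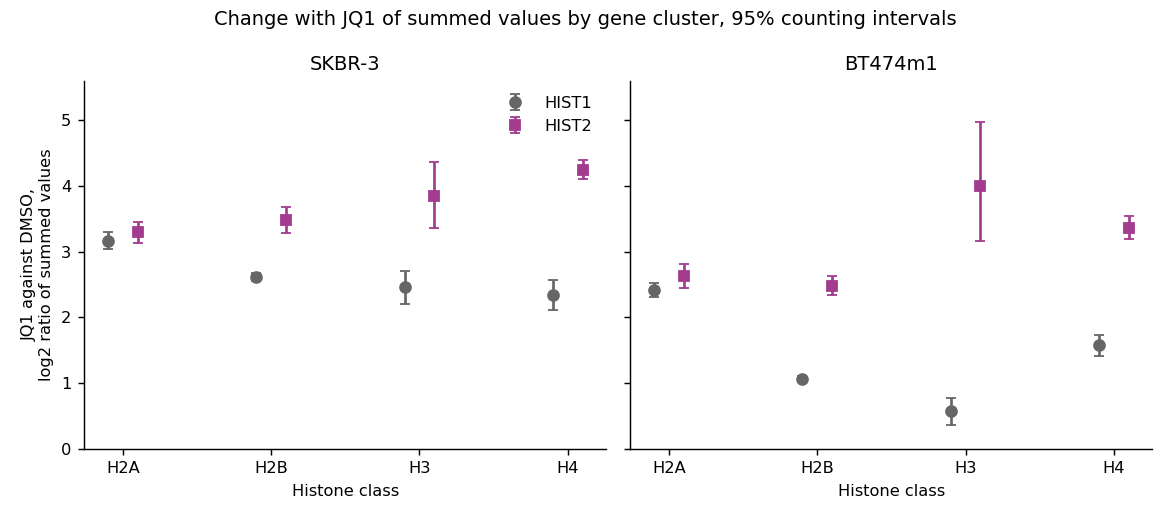
Log2 ratio of summed values, JQ1 against DMSO (vertical axis), for the HIST1 (circles) and HIST2 (squares) rows of 4 classes in each line. Bars are 95% counting intervals, and HIST2 lies above HIST1 in each class, by least in H2A (3.30 against 3.17 in SKBR-3).

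Lapatinib was accompanied by differences in both directions among the members. In SKBR-3 it raised 5 and lowered 16 of 45, against 11.1% and 9.44% of all genes kept, so the raised share of the members (11.1%) was that of all genes. In BT474m1 it raised 11 and lowered 10, against 14% and 8.06%. With the counting interval required, 3 were raised and 10 lowered in SKBR-3. The medians were -0.38 (-0.17 with the floor) in SKBR-3 and 0.53 (0.48) in BT474m1. By sums, H2A was higher in both lines (0.75 and 1.40), and H2B was at 0.45 and 0.40. In SKBR-3 H2A was at 0.37 without HIST1H2AC and H2B at 0.10 without HIST1H2BK. H1 was at 0.25 and 1.16, and the H1 rows other than HIST1H1C were at -1.40 and -1.33. H4 and H3 were at -0.01 (-0.17 to 0.16) and -0.23 (-0.54 to 0.08) in SKBR-3 and at 0.62 in BT474m1 for both, so that in SKBR-3 their differences were not detectable at this depth. HIST3 was at 0.11 (-0.31 to 0.53) in SKBR-3 and 2.16 (1.81 to 2.52) in BT474m1.

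The 3 members raised by it in both lines, where 4.39% of all genes were, were HIST1H2AC, HIST1H2BD and HIST1H4K, the last of which was not raised when summed with HIST1H4J. The 9 lowered in both, against 4.15% of all genes, were HIST1H1B, HIST1H2AD, HIST1H2BH, HIST1H2BJ, HIST1H2BO, HIST1H3B, HIST1H3C, HIST1H3G and HIST1H4J. For HIST1H2AD, HIST1H2BO and HIST1H3B, which rest on few reads, the counting interval included no change. HIST1H1B also rests on few reads in BT474m1, where a 2-fold fall is not shown against the floor. In the fit over both lines 2 members were lowered, HIST1H3G (adjusted p = 0.0406 by limma) and HIST1H4J (adjusted p = 0.0174 by limma), and none was raised, against 2.92% and 1.73% of all genes. HIST1H4J summed with HIST1H4K was not lowered (-0.26 and -0.04). Before adjustment, limma gave a p under 0.05 to 6 lower and 4 higher members, against 10.5% and 12.8% of all genes. Of the 9 lowered at 2-fold, HIST1H2AD, HIST1H2BH, HIST1H2BJ, HIST1H2BO, HIST1H3B, HIST1H3C, HIST1H3G and HIST1H4J were named after their values were seen. HIST1H3G measured 20.8, 0.766, 106 and 4.13 in SKBR-3 and 14.1, 0.602, 23.7 and 2.33 in BT474m1, and each lapatinib library held a single read. Its lapatinib differences were -3.62 and -3.24, with counting intervals of the ratio from -10.11 to -2.17 and from -9.90 to -1.965. HIST1H2BJ, with more reads, measured 76.6, 16.8, 904 and 139 in SKBR-3 and 68.4, 26.5, 148 and 58.3 in BT474m1. HIST1H2BH measured 35.8, 2.30, 58.6 and 5.17 in SKBR-3 and 22.6, 6.02, 22.2 and 14.0 in BT474m1. The lapatinib library was the lowest of the line for all 3 in SKBR-3 and BT474m1. In the same comparison, all 14 of the S phase replication genes listed for comparison (such as PCNA, MCM7 and RRM2) were lowered in both lines, whereas JQ1 lowered 0 of 14 in SKBR-3 and 2 of 14 in BT474m1 and raised none. Below the 2-fold limit the lines differed. With JQ1 each of these 14 genes was negative in BT474m1, from -1.47 to -0.045, and their median was -0.75. The SKBR-3 differences ran from -0.66 to 0.57, and their median was -0.20. For all genes kept the JQ1 medians were -0.06 (BT474m1) and -0.08 (SKBR-3). The part of the S phase share of cells in the histone values was not tested.

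**Figure D3:**
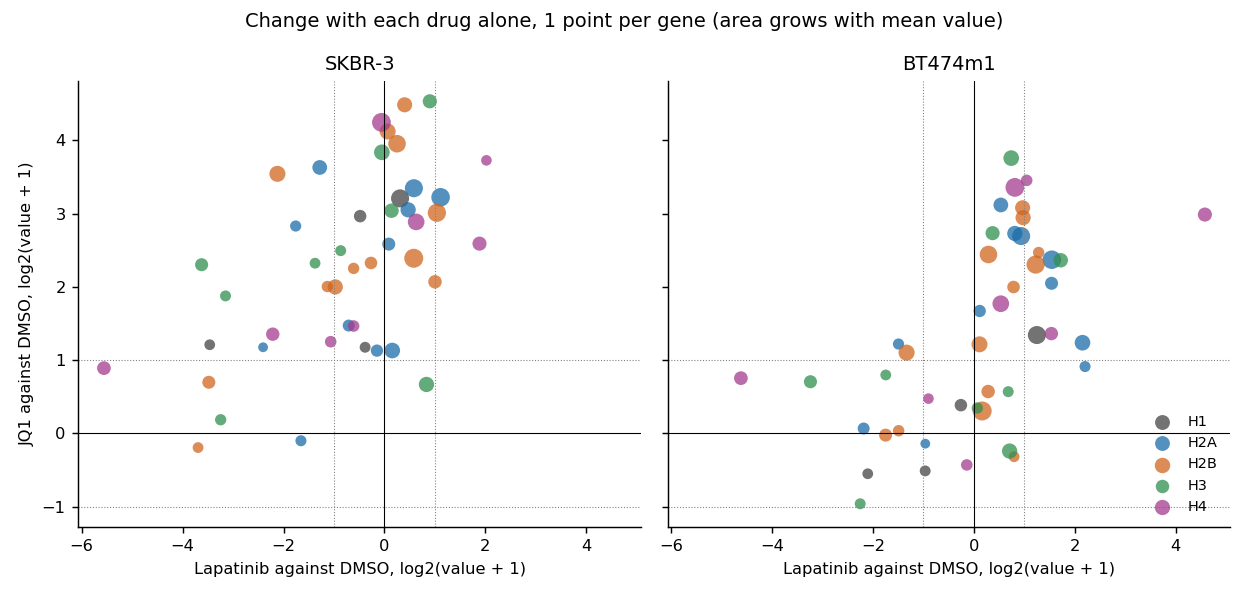
Difference with lapatinib (horizontal axis) and with JQ1 (vertical axis) against DMSO for the 45 members, on the log2(value + 1) scale, by class (colour) and line (panel), with point area growing with mean value and dotted lines at 2-fold. On the JQ1 axis 39 members of SKBR-3 and 25 of BT474m1 lie above the upper dotted line, and on the lapatinib axis they spread from -5.56 to 2.02 and from -4.62 to 4.58, where -5.56 and -4.62 are HIST1H4J and 4.58 is HIST1H4K, a pair whose sum was at -0.26 and -0.04. Both axes use the same DMSO library.

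Members were also grouped by how their annotated transcripts end. For 15 members GENCODE lists a transcript that runs 100 bases or more past the stem-loop or that has none, and for 30 it does not. This grouping was set after the values were seen. Lapatinib lowered 3 of the 15 and 13 of the 30 in SKBR-3, with medians of 0.14 and -0.66, and 1 of 15 and 9 of 30 in BT474m1, with medians of 0.81 and 0.14. JQ1 raised 13 of 15 and 26 of 30 in SKBR-3, with medians of 2.89 and 2.32, and 12 of 15 and 13 of 30 in BT474m1, with medians of 1.77 and 0.77. The group of 15 held 7 of 13 H2B members, 3 H3, 3 H4, 2 H2A and no H1 member. HIST1H2AC, HIST1H2BD, HIST2H2BE, HIST2H4A, HIST1H3E, HIST3H2A and HIST4H4 were in it, and HIST1H2BK, HIST1H1C and HIST1H3G were not. For some of the 15, such as HIST1H2BD and HIST2H2BF, no listed transcript runs 100 bases past the stem-loop. These are in the group only because they have transcripts without a stem-loop. The groups differ in level and class as well.

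Given together, the drugs raised 26 members and lowered 8 against DMSO in SKBR-3 (10.8% and 20.8% of all genes), and raised 21 and lowered 7 of the 45 in BT474m1 (14.2% and 15.3%). The 16 raised in both lines, against 4.46% of all genes, included HIST2H3C, HIST2H4A, HIST2H2AA3, HIST1H2AE and HIST1H2BD. Of these 5, HIST2H3C had the largest differences, with 3.87 for SKBR-3 and 4.31 for BT474m1. HIST1H4K, also among the 16, was at 0 with DMSO in BT474m1 and at least 30.8-fold higher with both drugs against a floor of 3 reads, but its sum with HIST1H4J gave a log2 ratio of 1.11 there. Of the 45, the fit over both lines called 13 raised by limma and none lowered, against 7.52% and 10.9% of all genes, and before adjustment 18 higher and 3 lower members had a p under 0.05, against 15.6% and 19.5%. The 4 lowered in both at 2-fold, against 8.93% of all genes, were HIST1H2AL, HIST1H3C, HIST1H3G and HIST2H2AC. Counting intervals excluded no change in both lines for 3 of them, and not for HIST1H3C. HIST1H2AL rests on few reads. By class sum against DMSO, the log2 ratio for both drugs was 3.27 for H4, 2.80 for H2A, 2.61 for H1, 2.17 for H3 and 1.48 for H2B in SKBR-3. In BT474m1 it was 2.07, 2.14, 0.91, 1.18 and 0.53 in the same order. This order rested on the leading gene of each class, without which the ratios were 2.29, 2.70, 0.60, 1.09 and 2.59 in SKBR-3 and 0.69, 2.30, -0.74, 0.62 and 1.62 in BT474m1.

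Adding lapatinib to JQ1 lowered more members than it raised. Against JQ1 alone, 22 were lowered and none raised in SKBR-3 (12.3% and 9.79% of all genes), and 15 were lowered and 4 raised in BT474m1 (7.27% and 12.4%). The filter bears on these counts. Of the 45 members, 30 had their highest value in the JQ1 library of SKBR-3, and only 32 reached 10 in a library without JQ1. By class sum H2B had the most negative ratio in both lines, at -1.24 in SKBR-3 and -0.74 (-0.79 to -0.70) in BT474m1, while H2A was at -0.32 and -0.27. HIST1H2BK was at -1.95 in SKBR-3 and at -1.27 in BT474m1, and the other H2B rows together gave -0.69 and -0.55. The order of classes rested on such leading genes. Without theirs, H1 (-1.64) and H3 (-1.35) were below H2B in SKBR-3, and H4 (-0.87) in BT474m1. By members, 7 of 9 H3 genes were lowered in SKBR-3 with a median of -1.33, and 7 of 13 H2B genes with a median of -1.11. The H3 sum was at -0.67 in SKBR-3 and at 0.20 (0.04 to 0.36) in BT474m1. The 4 members raised in BT474m1 were HIST3H2A, HIST1H2AK, HIST1H3J and HIST1H4K, the last of which was at 0.10 when summed with HIST1H4J. In both lines 10 were lowered and none raised, against 3.95% and 3.6% of all genes. Counting intervals excluded no change in both lines for 9 of the 10, and not for HIST1H2AL, which rests on few reads. The fit over both lines called 1 lowered by limma, HIST1H3G, against 2.79% of all genes, and 9 before adjustment, against 11.1%. Of the 4 raised in BT474m1, HIST1H2AK and HIST1H3J had 20.4 and 9.33 with both drugs.

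Adding JQ1 to lapatinib raised 32 members and lowered 1 in SKBR-3, against 3.22% and 16.2% of all genes. In BT474m1 it raised 16 and lowered 2, against 5.2% and 12.5%. The 1 lowered in SKBR-3 was HIST2H2AC, at 8.77 with lapatinib and 1.91 with both drugs, the latter under the floor of 3 reads (2.06 units). The 2 lowered in BT474m1 were HIST1H2BK, from 1701 to 779, and HIST1H2AL, from 1.205 to 0, which is under the floor. The 12 raised in both lines, against 1.14% of all genes, included 5 of the 6 HIST2 members, and none was lowered in both, against 6.31%. Counting intervals excluded no change in both lines for 10 of the 12, and not for HIST1H3G and HIST1H3J. The fit over both lines called HIST2H3C and HIST2H4A raised by limma, against 0.0347% of all genes, and 15 members before adjustment, against 4.95%. By sums, H4 was 3.27 in SKBR-3 and 1.45 in BT474m1, and H1 was 2.37 and -0.25. Without HIST2H4A, H4 was at 2.19 and 0.20, and without HIST1H1C, H1 was at 2.001 and 0.59.

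Departure from additivity was computed per member as the difference for both drugs against DMSO minus the sum of the single-drug differences. All 3 terms share the DMSO library, so only values are given. The median departure was -0.73 in SKBR-3 and -0.80 in BT474m1. Over all genes kept it was -0.06 and 0.0060. In SKBR-3 17 members lay 2-fold or more below the sum and 6 above it, against 7.58% and 3.902% of all genes. In BT474m1 21 lay below and 6 above, against 4.73% and 4.72%. H2B had medians of -1.10 and -1.203 in the lines, and H3 of -0.76 and -0.19.

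**Figure D4:**
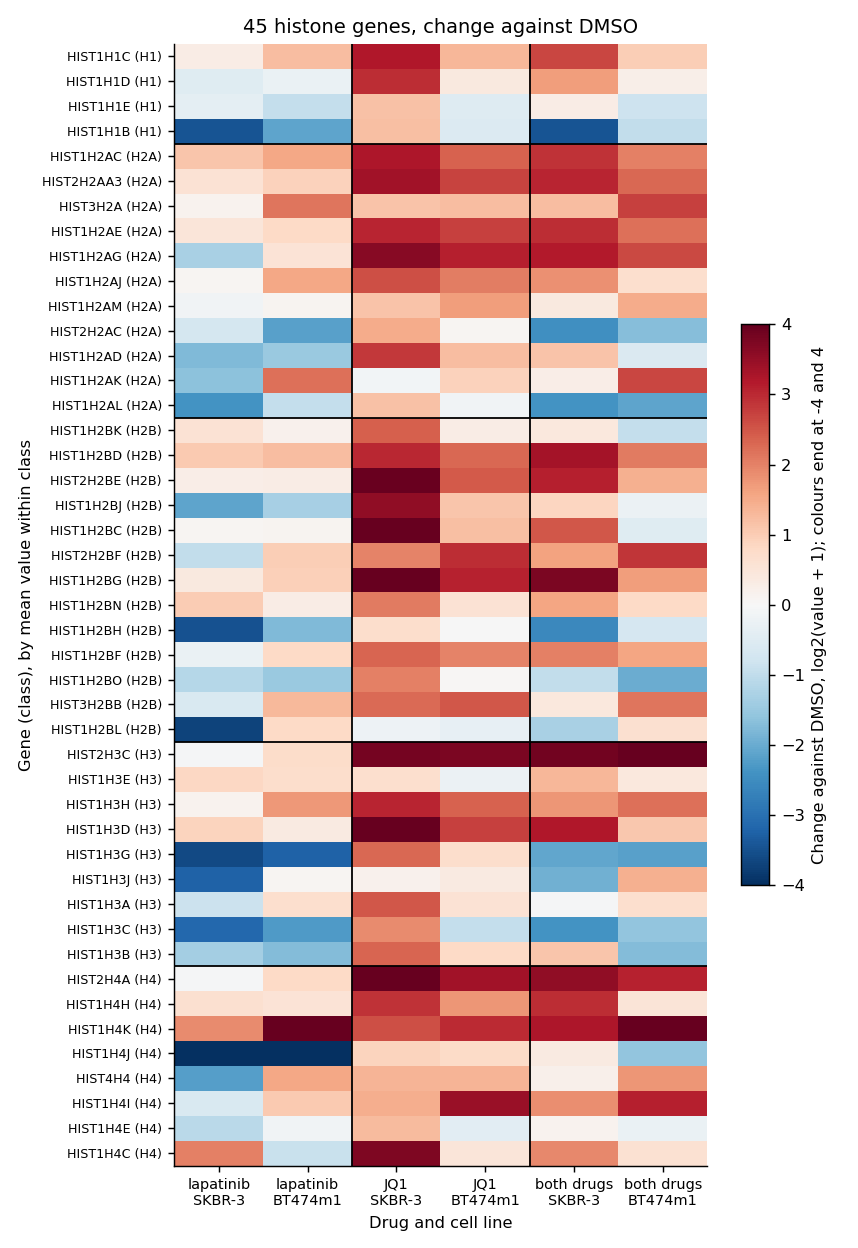
Difference against DMSO on the log2(value + 1) scale (colour, from blue for lower to red for higher, ending at -4 and 4) for the 45 members (rows, by class and mean value) with lapatinib, JQ1 and both drugs in each line (columns). The JQ1 columns are red for 43 members in SKBR-3 and 37 in BT474m1, whereas the lapatinib columns mix both colours, with 18 and 30 members above 0.

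The lines began at similar totals and different compositions. With DMSO, BT474m1 against SKBR-3 gave 0.17 (0.12 to 0.23) over all histone rows, 0.56 for H2B, -0.89 for H1, -0.25 for H2A, -0.36 for H4 and 0.25 (-0.01 to 0.51) for H3. By member, 10 were higher and 9 lower in BT474m1 by 2-fold or more, where 26.8% of all genes were higher and 15.6% lower. HIST1H3E, HIST1H2BD and HIST2H2BE were higher in BT474m1, by 1.964, 1.48 and 1.07, and HIST2H3C, HIST2H4A and HIST2H2BF were lower, by -1.99, -1.21 and -2.33.

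Head-to-head neighbours did not always move together. Among the members 8 pairs of H2A and H2B genes had starts 193 to 247 bases apart. With JQ1 both genes were raised in 7 of 8 pairs in SKBR-3 and in 5 of 8 in BT474m1. The genes of a pair nevertheless differed from each other by 2-fold or more in 4 and 5 pairs, and under lapatinib in 3 and 6. Around the first printed promoter, HIST1H2BC and HIST1H2AC rose with JQ1 by 4.12 and 3.22 in SKBR-3 and, in BT474m1, by 1.22 and 2.37. In the other, HIST2H2BE rose by 3.95 and 2.44, while HIST2H2AC, measuring 15.0, 8.77, 43.2 and 1.91 in SKBR-3 and 7.66, 0.904, 8.06 and 1.64 in BT474m1, differed by 1.47 and 0.07. HIST2H2AC and HIST2H2AA3 were identical at 438 of 489 aligned transcript bases (89.6%), so reads could have been assigned to either.

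Other histone and histone-related genes were followed on 7 comparison lists. Their counts stand against the shares of all genes given above, 3.75% and 4.81% raised and 11.8% lowered in each line with JQ1, and 9.44% and 8.06% lowered with lapatinib. Among 12 replication-independent histone genes, most of which give polyadenylated mRNAs throughout the cell cycle, JQ1 raised 4 in SKBR-3 and 2 in BT474m1, and 1 was lowered in each line. H3F3B, which encodes the variant H3.3, was raised by 1.22 and 1.09, and H1F0, a linker histone of resting cells, by 1.94 in SKBR-3 and measured 0.39 in BT474m1. H2AFX, whose transcripts can end either way, was at 0.87 and 0.41 with JQ1 and at -2.05 and -2.53 with lapatinib, which lowered 3 genes of this list in each line and raised none. With JQ1 the differences on this list had medians of 0.65 and 0.40 in the lines. The most negative was -1.95 and the most positive 1.94 in SKBR-3, a range that overlaps that of the 45 members, whose differences ended at 4.53. The -1.95 was H2AFY2, the 1 gene lowered in SKBR-3. It went from 2.86 with DMSO to 0 with JQ1, and its counting interval included no change. The list and the members overlapped in BT474m1 as well. In the stem-loop processing list none of 12 was raised by JQ1 in either line, and SLBP was at 0.42 and 0.22. Lapatinib lowered 2 genes of this list in SKBR-3, CSTF2 and SRRT, and 1 in BT474m1, which was SLBP at -1.01 (-0.85 in SKBR-3). With JQ1, LSM11, a subunit of the U7 particle that cuts histone pre-mRNA, was at -1.19 in SKBR-3 and at -0.54 in BT474m1. It was the only gene of this list that JQ1 lowered. In the decay and uridylation list JQ1 raised none of 9 in either line and lowered 1 in SKBR-3, DOM3Z at -1.08. Lapatinib lowered none in SKBR-3 and 1 in BT474m1, ERI1 at -1.01.

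Some regulators of histone transcription were lowered with lapatinib, and none passed 2-fold with JQ1. Of 8 on that list, lapatinib lowered 5 in SKBR-3 and 3 in BT474m1, and JQ1 changed 0 in both. HINFP (0.57 and 0.41), YY1 (-0.02 and -0.13) and NPAT passed in neither line with lapatinib. NPAT, the coactivator of histone clusters, was at 0.08 and 0.17 with lapatinib and at 0.18 and -0.06 with JQ1, whereas CDK2, which phosphorylates it, was at -2.40 and -1.97 with lapatinib. E2F1 was at -3.48 and -4.83. Of 14 histone chaperones, JQ1 raised none and lowered 1 in BT474m1 (CHAF1A, at -1.17), and lapatinib lowered 4 in SKBR-3 and 3 in BT474m1, with ASF1B at -3.17 and -4.84. On the list of NELF and P-TEFb genes, which control pausing of RNA polymerase II, the 1 gene raised by JQ1 was HEXIM1 in BT474m1 (1.27), an inhibitor of P-TEFb that measured 0.81 in SKBR-3.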

How the data were processed

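Poly(A) RNA of 8 cell-line cultures was measured, 1 library per group. The deposited signal values are gene abundance estimates that the authors scaled so that the upper quartile of each library was 1000. The submitters' processing notes name RSEM, SAMtools 1.2, Picard 1.88, R 3.2.2, DESeq2 1.12.3 and build hg19, whereas the study's methods name another build and quantifier. The labels name a TruSeq kit in 1 field and a KAPA stranded kit in another, and give 48 h where the methods text gives a shorter exposure. A figure legend of the study also gives 48 h, for expression in SKBR-3 with DMSO or lapatinib.

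The value of 1 read was recovered per library (0.471 to 0.766 units), with 83.8% to 85.2% of all values above 0 whole within 0.02 reads, so counts were used only for intervals, with a floor of 3 reads (1.41 to 2.30 units). Genes that reached a value of 10 in at least 1 library were kept (14429 of 20531). Differences were log2(value + 1), which understates changes of low genes, called at 2-fold. With 1 library per group, differences within a line have no test. A limma 3.58.1 fit (R 4.3.3) over both lines, with treatment and line as terms and the variance trend on log2(value + 1), gave adjusted p-values over all genes kept, and was added after seeing the data. Intervals were exact Clopper-Pearson at 95%. Class sums used all matching rows. Named genes were each H1, HIST3 and HIST4 member, the 3 highest means of each other class, the 5 largest changes in both lines for each treatment against DMSO among genes at 100 or more, list genes with the highest mean or largest change, and rows next to the value of 10, and other genes named (such as HIST1H2BC, HIST2H2AC, HIST2H2BF, HIST1H2AK and HIST1H3J) were chosen after their values were seen. Members, lists and comparisons were chosen with earlier results of these data known. Contrasts share control libraries. Promoters (RefSeq, GRCh38.p14) were found for 61 of 67 rows by gene ID, with the first window used where a gene had several, and transcripts (GENCODE release 44) for 67 by symbol. The calling step and the limma fit were tested on simulated data. Python 3.11.15, pandas 2.3.3, numpy 2.4.6, scipy 1.17.1 and matplotlib 3.10.9 were used. Alternatives were another pseudocount, 2 other scalings, other filters and a counting interval.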

Additional observations from a re-analysis of the deposited data

Results flagged for a closer look

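The differences of the 2 lines had opposite signs in the results below. Each rests on 1 library per group, and the differences between lines were not tested. With lapatinib against DMSO, HIST1H2AK was at -1.65 in SKBR-3 and 2.20 in BT474m1, and HIST4H4 at -2.21 and 1.54 on the log2(value + 1) scale (-2.81 and 1.59 as the log2 ratio of the HIST4 sum). With both drugs against DMSO, HIST1H3B was at 1.1185 in SKBR-3 and -1.75 in BT474m1, and HIST1H3J at -1.92 and 1.43. HIST1H3J was also at -2.10 and 1.09 for both drugs against JQ1. Counting intervals excluded no change in both lines for HIST4H4 and for HIST1H3J against DMSO, and not for the other 3 results. HIST1H2AK was at or under the floor of 3 reads in both SKBR-3 libraries of its comparison, so a fall there was not measured. By class, the H1 sum was at 2.37 in SKBR-3 and -0.25 in BT474m1 for both drugs against lapatinib, and the H3 sum at -0.67 and 0.20 for both drugs against JQ1. These sums rest on single genes. Without HIST1H1C the H1 sum was at 2.001 and 0.59, the same direction in both lines, and without HIST2H3C the H3 sum was at -1.35 and 0.04.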

How the results depend on the processing

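The labels give no replicate numbers, so libraries were paired by cell line only. That fit, with the line as a block (limma, adjusted p under 0.05), was chosen after seeing the data and called fewer members than 2-fold in both lines: 0 raised and 2 lowered for lapatinib (3 and 9 at 2-fold), 2 raised for JQ1 (25), 0 lowered for both drugs against DMSO (4), 2 raised against lapatinib (12) and 1 lowered against JQ1 (10). For both drugs against DMSO it called 13 raised (16). With 1 library per group no library was left out. The counts of members at 2-fold depended most on the pseudocount. With a pseudocount of 10, lapatinib against DMSO gave 2 raised and 7 lowered in SKBR-3 (5 and 16 as reported), and 7 raised with 4 lowered in BT474m1 (11 and 10), both drugs against DMSO lowered 4 and 0 (8 and 7), both drugs against lapatinib gave 0 lowered in SKBR-3 (1), and 7 raised with 1 lowered in BT474m1 (16 and 2), and both drugs against JQ1 raised 2 and lowered 9 in BT474m1 (4 and 15). Scaling to equal totals gave 3 raised by lapatinib in SKBR-3 (5). With the counting interval required, lapatinib in SKBR-3 raised 3 and lowered 10, and both drugs against lapatinib lowered 1 in BT474m1. Without the filter on low values, JQ1 lowered 1 in each line (0), and both drugs lowered 2 against lapatinib in SKBR-3 (1). Of 50 alternatives for raised counts 44, and of 50 for lowered counts 38, stayed within 1.5 times. The counts raised by JQ1 stayed within it under each. Of 80 alternatives for member medians 2 changed the sign, none of a median of 1 or more. In 5 the median fell outside the range from the median lower to the median upper counting bound of single members. That range is the width for a typical single gene and not the counting error of the median, so smaller moves were not flagged. For JQ1 against DMSO the median was 1.44 in SKBR-3 with a pseudocount of 10 (2.33), and 0.57 without the filter and 2.37 over rows at 100 or more in BT474m1 (1.22). For both drugs against DMSO in SKBR-3 those filters gave 0.47 and 2.94 (1.33), the latter the largest move, 1.61. Of 240 alternatives for class sums 33 moved by more than counting error, by at most 0.16, and 1 changed sign, that of H4 for lapatinib in SKBR-3 (-0.01 as reported, 0.0082 over members only). Scaling to equal totals shifted the median of all genes for JQ1 in SKBR-3 from -0.08 to -0.22, and median-of-ratios scaling that for both drugs against lapatinib in SKBR-3 from -0.11 to 0. Restricting class sums to members was added after seeing the data and moved none of these by more than counting error. Depth limits single genes under about 10 reads, where 1 read is 0.471 to 0.766 units.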
